A study of Mus musculus with 2 samples.

Results

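Histone genes whose transcripts can be read by a poly(A)-primed single-cell library were followed in B cells of the mouse colon before and after dextran sodium sulfate (DSS) colitis. Members were the genes whose symbols start with Hist1h, Hist2h or Hist3h, plus H1f0, with 5 or more unique molecular identifiers (UMIs, counts of distinct captured RNA molecules) over both libraries. Of 31053 genes in the count matrices, 67 carried such names, and 52 of these were members. A further 10 genes had 1 to 4 UMIs, and Hist1h1t, Hist1h2aa, Hist1h2ah, Hist1h2ba and Hist1h3b were counted at 0. Just inside the limit, Hist1h2bm, Hist1h2bp and Hist1h2bk had 5 UMIs each. Just outside it, Hist2h2aa2, Hist1h3h and Hist1h4a had 4 each.

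Both libraries came from female C57BL/6J mice, an inbred laboratory strain, and held B cells sorted by flow cytometry from the colon. The day 0 library came from untreated mice and the day 14 library from mice given 2% DSS in drinking water for 7 days and then left to recover for 7 days. DSS injures the colonic epithelium, and the study followed B cells into the repair phase. The treatment tag of the day 0 sample also reads DSS, whereas its protocol text gives no treatment, and the protocol was followed. The sources used here give neither the mice's age nor how many were pooled per library. Each day had 1 library, so no difference between days has a replicate check, and cells of 1 library share their mice and their preparation. Intervals below are exact 95% intervals that cover counting error only, and "lower" or "higher" names the side of a measured ratio.

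The libraries held 3290 cells at day 0 and 4692 at day 14, with 8690102 and 12317052 UMIs and medians of 2278.5 and 2241.5 UMIs per cell. Cell barcodes shared by both libraries numbered 17. Outside plasma cells, Cd79a, a part of the B cell receptor, had a UMI in 97.8% of cells at day 0 and 97.7% at day 14. Cells were split into a plasma-like cluster of 25 and 30 cells (led by Jchain, with 9 plasma cell markers among its 25 leading genes), cycling cells (80 and 108) and non-cycling cells (3185 and 4554). A cell counted as cycling when it had at least 1 UMI of Mki67 or Top2a, 2 genes of dividing cells. Of the cycling cells, 68 at day 0 and 86 at day 14 had a single such UMI. Levels are given as CPM, the UMIs of a gene per 1000000 UMIs of a cell set after immunoglobulin genes and genes of the mitochondrial genome were taken out of the total. The kit reads RNA 3′ ends, so CPM counts captured ends, is not divided by gene length and can differ between genes with capture.

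Core histones H2A, H2B, H3 and H4 form the spool of the nucleosome, and H1 linker histones bind the DNA between spools. Most histone genes lie in clusters of near-identical copies and are transcribed in S phase, when new DNA must be packaged. Their mRNAs usually end just past a short stem-loop, bound by Slbp, in place of a poly(A) tail, and are degraded when replication ends. Some of these genes can also give transcripts that run past the stem-loop to a poly(A) signal, mainly in resting or differentiated cells, and H1f0 is a replacement H1 gene with a polyadenylated mRNA. A library primed on poly(A) reads the polyadenylated forms, and stem-loop mRNAs only poorly. Whether any single UMI came from a polyadenylated transcript was not measured, so the adjective describes the assay.

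The 52 members lie in 4 places of the mouse genome (mm10): 40 in the Hist1 cluster on chromosome 13, 9 in the Hist2 cluster on chromosome 3, 2 in the Hist3 cluster on chromosome 11, and H1f0 on chromosome 15. By protein, 6 encode H1, 15 encode H2A, 15 encode H2B, 9 encode H3 and 7 encode H4. GENCODE M21 transcripts (mm10) were searched, past the coding sequence, for a 6-base stem closed by a 4-base loop within 16 bases. Some letters were fixed: GG first, CC last, T and A on either side of the loop, and at least 2 T within it. Up to 1 stem mismatch was allowed, and stem-loops with other letters at the fixed places would not have matched. A match was found in 36 members. The sequences below show that abundant members carry the same signal as ordinary S-phase histone genes, with the stem-loop in capitals and up to 5 flanking bases in lower case.

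Hist3h2a, chr11:58955172-58955187, plus strand: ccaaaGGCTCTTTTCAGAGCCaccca
Hist1h1c, chr13:23739512-23739527, plus strand: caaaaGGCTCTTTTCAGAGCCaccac
Hist1h2ap, chr13:21833029-21833044, minus strand: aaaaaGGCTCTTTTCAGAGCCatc
Hist1h4i, chr13:22040966-22040981, minus strand: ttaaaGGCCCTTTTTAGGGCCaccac
Hist2h2ac, chr3:96220418-96220433, minus strand: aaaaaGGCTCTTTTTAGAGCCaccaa
Hist1h3e, chr13:23561903-23561918, minus strand: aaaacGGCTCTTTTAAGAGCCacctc

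The form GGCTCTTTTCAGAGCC was shared by 23 of the 36 members. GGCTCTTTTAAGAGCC was found in 5 members, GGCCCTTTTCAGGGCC in 4 and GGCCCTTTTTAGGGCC in 2, and the other two forms in 1 each. All 6 members with the GGCCCT stem were H4 genes. The 16 members without a match included H1f0 and Hist1h2bc, and some whose annotated transcript stops with the coding sequence, such as Hist1h1b, so that a stem-loop there could not be searched.

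What followed the stem-loop differed between members. The annotated transcript of Hist3h2a ran 1643 bases past it and that of Hist1h1c 840 bases, each with an AATAAA poly(A) signal in its last 50 bases. The transcript of Hist1h2ap ended 3 bases past it. Transcripts of 19 members ran over 100 bases past the stem-loop, and these 19 held 75.4% of the members' UMIs in non-cycling cells and 53.7% in cycling cells. The 17 members whose transcripts ended within 100 bases held 9.73% and 23.2%. An AATAAA or ATTAAA in the last 50 bases was found in 13 members, with 66.5% of the non-cycling and 45.2% of the cycling UMIs. In RefSeq gene models (GRCm38.p6), to which all 52 members were matched by symbol or synonym, 33 of the 36 genes with a stem-loop ended at most 50 bases past it, Hist3h2a 5 bases and Hist1h1c 4 bases. The sources used here do not name the annotation behind the deposited counts. The counts list all 52 members under gene identifiers that GENCODE M21 also uses, but the gene models counted were not seen. A gene model that stops at the stem-loop would not count reads that lie past it.

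In non-cycling cells the members were lower at day 14 as a group. Their summed level was 554.4 CPM at day 0 (4217 UMIs) and 361.3 CPM at day 14 (3941 UMIs), a ratio of 0.652 (0.624 to 0.681). The Poisson intervals of the levels, 537.8 to 571.4 and 350.1 to 372.8 CPM, did not overlap. Without Hist1h1c the ratio was 0.743 (0.707 to 0.781), and without Hist1h1c and Hist3h2a 0.736 (0.691 to 0.784).

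Of the 52 members, 22 had at least 50 UMIs over both days in non-cycling cells. In this set 8 were at least 1.5-fold lower at day 14 and none was at least 1.5-fold higher, where all genes with at least 50 UMIs gave 4.63% and 1.36%. The shares of all genes are not matched for UMI count. Of the 8765 genes, 6032 had at least 200 UMIs, while most of the 22 members had fewer. Ratios past 1.5-fold are more common among genes with fewer UMIs, so 4.63% is a low background for these members. The counting interval of the ratio lay below 1 for 12 of the 22 (18.2% of all such genes) and above 1 for none (5.83% of all). The median log2 ratio was -0.54 for these members and -0.09 over all 8765 genes. A ratio below 1 was found in 18 of the 22 members. The share of all genes below 1 was not counted, and their median ratio also lay below 1. Scaling by TMM factors moved all log2 ratios by 0.10 and by median-of-ratios factors by 0.11, which left 7 and 5 members at least 1.5-fold lower and none higher. The split over all genes, 406 lower and 119 higher, became 236 and 196 with TMM and 229 and 219 with median-of-ratios. With either scaling 17 of the 22 members had a ratio below 1, at all-gene median log2 ratios of 0.01 and 0.02. The other 30 members held 0 to 49 UMIs each, and together 242 UMIs at day 0 and 255 UMIs at day 14, with a summed ratio of 0.735 (0.614 to 0.880). Of those 30, 24 had a ratio below 1, again with no share over all genes counted. The interval lay below 1 for Hist2h3c2 alone, named here after its values were seen. With a minimum of 5 UMIs, 21 members were at least 1.5-fold lower and 2 higher, where all genes gave 11.3% and 4.83%. With a minimum of 200 UMIs, 3 members (Hist1h1c, Hist1h1e and Hist3h2ba) were lower and none higher, where all genes gave 1.81% and 0.613%.

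**Figure D1:**
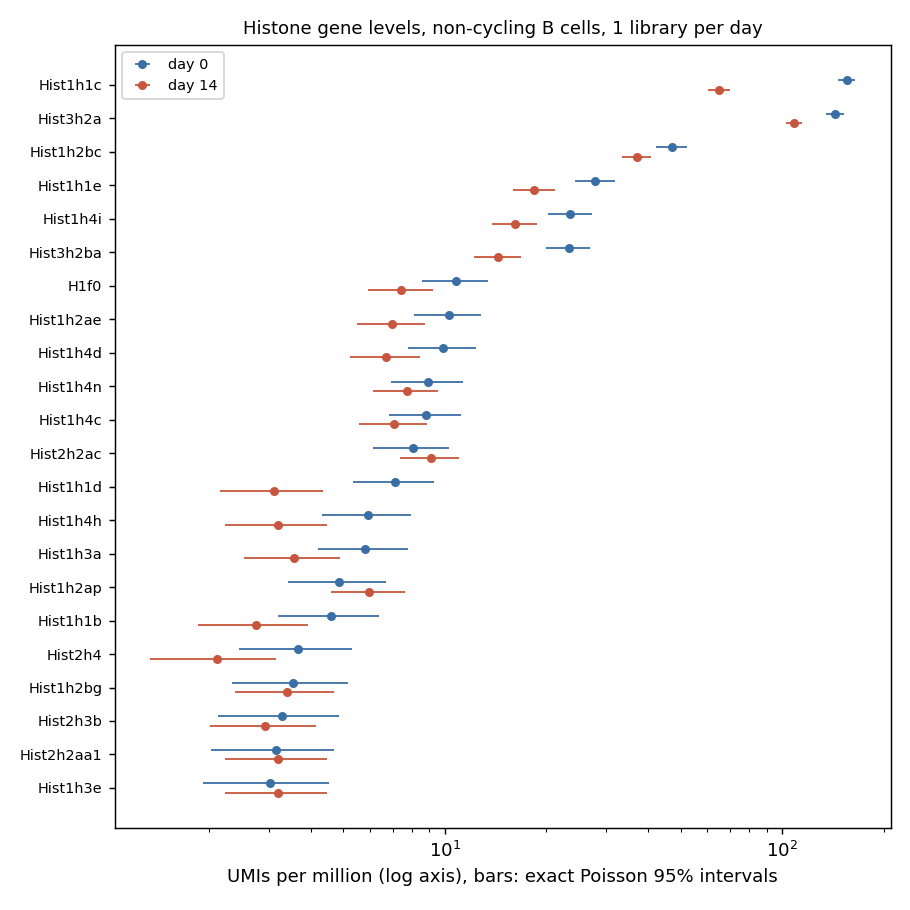
Level of each of the 22 histone genes with at least 50 UMIs in non-cycling cells, in CPM on a log axis, at day 0 (blue) and day 14 (red), with exact Poisson 95% intervals. Hist1h1c and Hist3h2a stand above the others at both days, and Hist1h1c is the higher of the pair at day 0 and the lower at day 14.

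The 6 H1 linker histone genes together went from 206.5 CPM at day 0 to 97.3 CPM at day 14, a ratio of 0.471 (0.435 to 0.509). Most of their UMIs were those of Hist1h1c, and the H1 genes without it had 387 UMIs at day 0 (50.9 CPM) against 353 at day 14 (32.4 CPM), with a ratio of 0.636 (0.549 to 0.737). Hist1h1c, which encodes the linker histone H1.2, had 1184 UMIs (155.7 CPM) at day 0 and 708 UMIs (64.9 CPM) at day 14, 2.40-fold lower (2.18 to 2.64). It was the most abundant member at day 0 and ranked below Hist3h2a at day 14. It lies at chr13:23738808-23740367 on the plus strand, with no overlapping annotated gene.

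A UMI of Hist1h1c was found in 23.5% of non-cycling cells at day 0 and in 11.2% at day 14. After each cell was thinned to 1000 UMIs, leaving out 34 and 63 shallower cells, the shares were 12.6% (397 of 3151 cells, 11.5 to 13.8%) and 5.52% (248 of 4491 cells, 4.87 to 6.23%). Cells with 2 or more UMIs, without thinning, made up 7.97% at day 0 and 2.35% at day 14. The gene was thus detected in fewer cells at day 14, and no non-cycling cell of either day had more than 10 UMIs of it.

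Hist1h1d, which encodes H1.3, had 54 UMIs (7.10 CPM) at day 0 and 34 UMIs (3.12 CPM) at day 14, 2.28-fold lower (1.46 to 3.61). Hist1h1e, which encodes H1.4, had 212 UMIs (27.9 CPM) and 201 UMIs (18.4 CPM), 1.51-fold lower (1.24 to 1.84). Hist1h1b, which encodes H1.5, had 35 UMIs (4.60 CPM) and 30 UMIs (2.75 CPM), 1.67-fold lower. The last of these rests on few molecules, and its interval reached 1. The Hist1h1e model overlaps Hist1h2be on the same strand, so reads of that stretch cannot be assigned with certainty.

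H1f0, the replacement linker histone of resting and differentiated cells, had 82 UMIs (10.8 CPM) at day 0 and 81 UMIs (7.43 CPM) at day 14, 1.45-fold lower (1.05 to 2.00). It passed no 1.5-fold limit, and its interval stayed below a ratio of 1. The cell cluster led by Rgs1, Cd80 and S100a6 held 24 and 6 of these UMIs, a ratio of 0.383 (0.128 to 0.961). Its share of all cells was 4.68% at day 0 and 2.22% at day 14. In clusters led by Emp3, Slfn2, Notch2 and Cfp the H1f0 ratio was above 1 (1.25, 3.28, 1.29 and 1.49). In those led by Gm6377 and Egr1 it was below 1 (0.695 and 0.763), and in both groups of clusters the intervals included 1.

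H2A genes were lower by less, at a summed ratio of 0.781 (0.726 to 0.840), and most UMIs of the class came from 1 gene. Hist3h2a, which lies at chr11:58954685-58956830 on the plus strand, had 1092 UMIs (143.6 CPM) at day 0 and 1184 UMIs (108.5 CPM) at day 14, 1.32-fold lower (1.22 to 1.44). Thinned to 1000 UMIs, 12.6% of cells at day 0 and 10.1% at day 14 held a UMI of it. Its model overlaps Trim17 on the same strand, so part of its reads is uncertain. Hist1h2ae had 78 UMIs (10.3 CPM) and 76 UMIs (6.97 CPM), 1.47-fold lower (1.06 to 2.05).

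Among the 22 members with at least 50 UMIs, 4 had a ratio above 1, and none of their intervals excluded 1. Hist1h2ap had 37 UMIs (4.86 CPM) at day 0 and 65 (5.96 CPM) at day 14, a ratio of 1.23 (0.81 to 1.89). Hist2h2ac had 61 (8.02 CPM) and 99 (9.08 CPM), a ratio of 1.13 (0.81 to 1.58). Hist2h2aa1, with 24 and 35 UMIs, and the H3 gene Hist1h3e, with 23 and 35 UMIs, had ratios of 1.02 and 1.06. Of these 4 genes, Hist1h3e is the one whose annotated transcript runs over 100 bases past the stem-loop.

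H2B genes gave a summed ratio of 0.757 (0.679 to 0.844). Hist1h2bc, whose transcript carried no stem-loop match and which spans chr13:23684199-23692908, had 358 UMIs (47.1 CPM) at day 0 and 405 UMIs (37.1 CPM) at day 14, 1.27-fold lower (1.10 to 1.46). Hist3h2ba, the H2B gene beside Hist3h2a on chromosome 11, had 177 UMIs (23.3 CPM) and 157 UMIs (14.4 CPM), 1.62-fold lower (1.30 to 2.02). Hist1h2bg, at 27 and 37 UMIs, had a ratio of 0.96 (0.57 to 1.63). The H2B genes beyond these carried fewer than 50 UMIs each.

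H4 genes gave a summed ratio of 0.713 (0.628 to 0.811). Hist1h4i, the most abundant of them, had 179 UMIs (23.5 CPM) at day 0 and 176 UMIs (16.1 CPM) at day 14, 1.46-fold lower (1.18 to 1.81). Hist1h4h, at 45 and 35 UMIs, was 1.84-fold lower (1.16 to 2.95), and Hist1h4d, at 75 and 73 UMIs, 1.47-fold lower (1.05 to 2.06). Hist2h4, at 28 and 23 UMIs, was 1.75-fold lower with an interval that included 1 (0.97 to 3.17). Hist1h4n, at 68 and 84 UMIs, and Hist1h4c, at 67 and 77 UMIs, had ratios of 0.86 (0.62 to 1.20) and 0.80 (0.57 to 1.13). All H4 genes encode the same protein, and reads of near-identical copies are uncertain for each single gene.

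H3 genes were sparse, with 144 UMIs at day 0 and 147 at day 14 over 9 genes and a summed ratio of 0.712 (0.562 to 0.902). Hist1h3a, at 44 and 39 UMIs, was 1.62-fold lower (1.03 to 2.56). Hist2h3b, at 25 and 32 UMIs, had a ratio of 0.89 (0.51 to 1.57). The H3 mRNA of resting cells comes mostly from replacement genes, whose values follow further on.

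**Figure D2:**
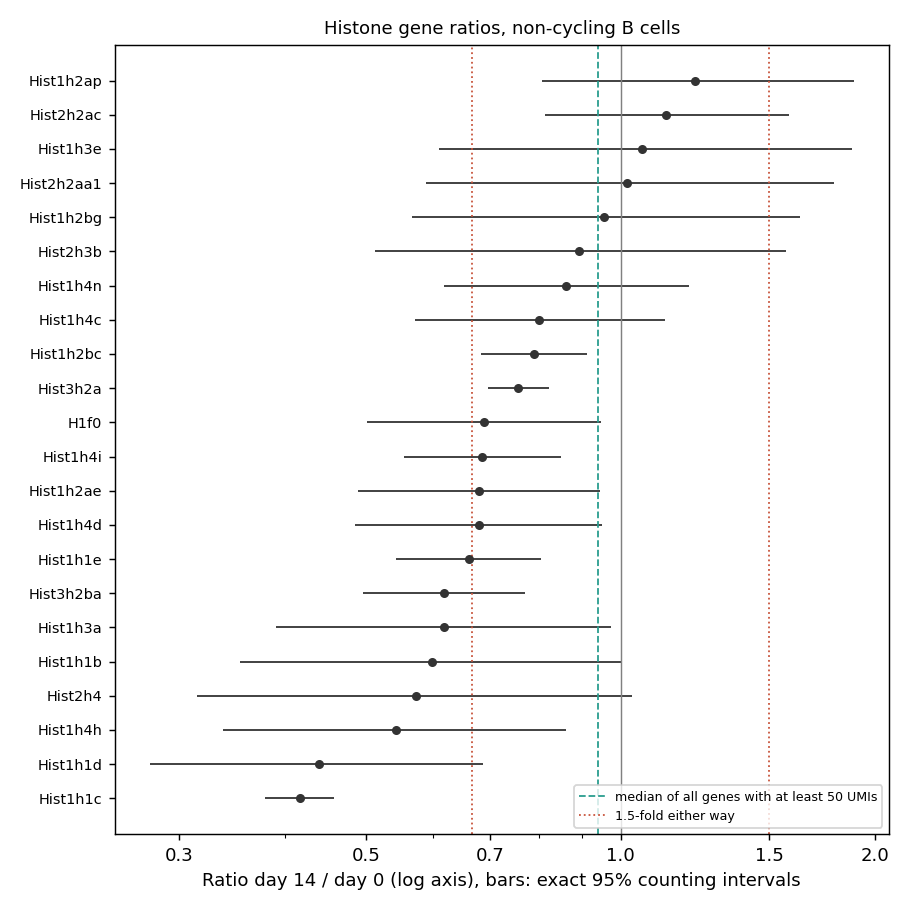
Ratio of day 14 to day 0 in non-cycling cells for the 22 histone genes with at least 50 UMIs, on a log axis, with exact 95% counting intervals. The dashed line is the median of all genes with at least 50 UMIs and the dotted lines mark 1.5-fold, and 12 intervals lie below a ratio of 1 and none above.

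Grouped by transcript end, the 19 members that run over 100 bases past the stem-loop had a day 14 to day 0 ratio of 0.610 (0.580 to 0.642), or 0.720 (0.677 to 0.765) without Hist1h1c. The 17 members that end within 100 bases had a ratio of 0.862 (0.748 to 0.995). The 16 without a match had 0.756 (0.674 to 0.847). The intervals of the first and second groups did not overlap with Hist1h1c in the sum, and overlapped by a narrow margin without it.

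The lower level of the summed members and of Hist1h1c was not tied to 1 cluster of cells. Clustering left out the histone genes, so it did not use their levels. Outside the plasma-like cluster, the summed members had a ratio with an interval below 1 in 7 of 10 clusters, and Hist1h1c in 6 of 10. Hist1h1c went from 152.4 to 67.8 CPM in the cluster led by Emp3, Dnajb2 and Cystm1 (294 and 131 UMIs). It went from 148.5 to 55.6 CPM in the cluster led by Slfn2, Tifa and Tmem108, and from 211.9 to 104.1 CPM in that led by Gm6377, Gpr183 and Pmaip1. The lowest ratio of Hist1h1c was that of the cluster led by Cfp, Pa2g4 and Srm, at 77.7 and 22.1 CPM, 0.285 (0.185 to 0.434). In the cluster led by Rgs1, Cd80 and S100a6 it did not differ measurably, at 75.6 and 77.2 CPM, a ratio of 1.02 (0.58 to 1.76).

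A small cluster led by Hspa1a, Hspa1b and Dnajb1, chaperones of the heat shock response, went the other way. It held 32 non-cycling cells at day 0 and 71 at day 14. Its members summed to 668.8 CPM at day 0 (48 UMIs) and 1082 CPM at day 14 (181 UMIs), a ratio of 1.62 (1.17 to 2.27). Hist1h2bc there had 13 UMIs (181.1 CPM) at day 0 and 77 UMIs (460.4 CPM) at day 14, a ratio of 2.54 (1.40 to 4.99). At day 14 those UMIs were spread over 26 of the 71 cells, with 26 of 77 in the 3 highest cells and 13 in the highest. Hist1h1c was high there at both days, with 17 UMIs (236.9 CPM) and 53 UMIs (316.9 CPM). Hist3h2a was not, with 10 UMIs at each day (139.3 and 59.8 CPM). Heat shock genes can also be induced by tissue dissociation, whose part in the result was not tested. Without this cluster the ratio of Hist1h2bc in all other non-cycling cells was 0.667 in place of 0.79, just short of the 1.5-fold limit.

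**Figure D3:**
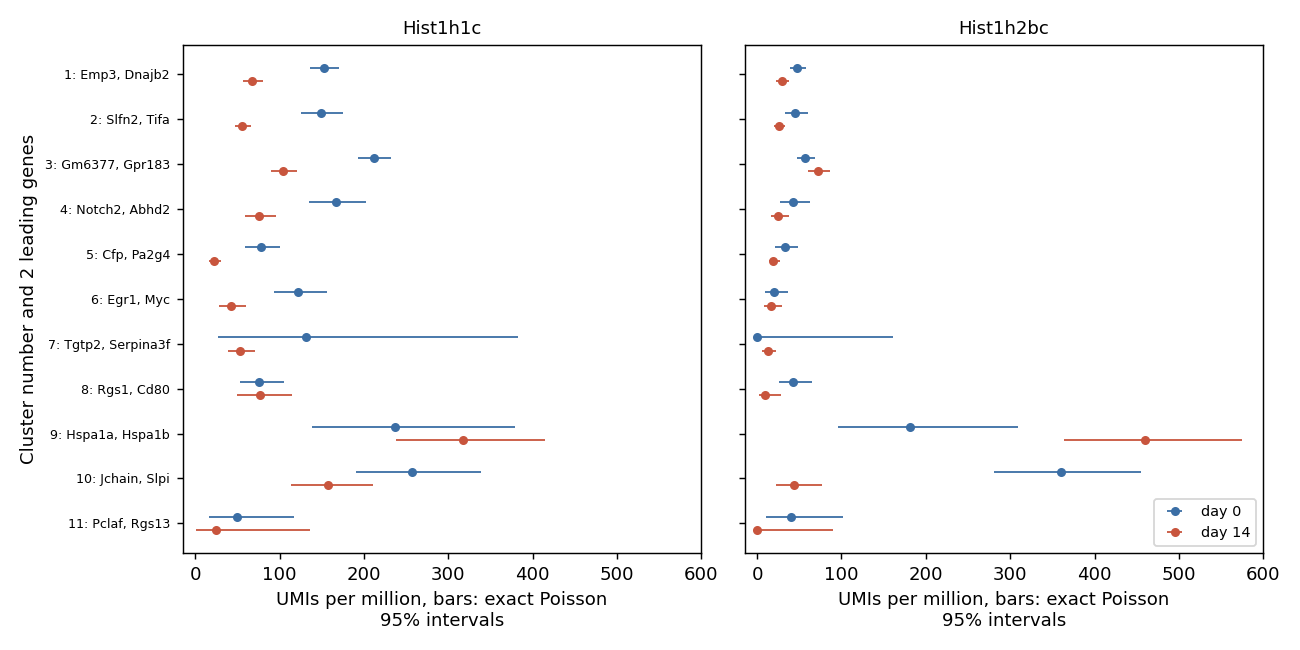
Levels of Hist1h1c (left) and Hist1h2bc (right) in CPM in each cluster at day 0 (blue) and day 14 (red), with exact Poisson 95% intervals. Cycling cells are left out except in cluster 10, the plasma-like one, and Hist1h1c was lower at day 14 in clusters 1 to 6 while cluster 9 held 460.4 CPM of Hist1h2bc at day 14.

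Promoters of the members were read as the 250 bases before each gene's start in RefSeq (GRCm38.p6), where 47 of the 52 members had a row. One start was read per gene, the first listed. The CCAAT box, searched as CCAAT on both strands, was in 40 of the 47 (85.1%), against 33.8% of all 32851 promoters in the table. The TATA letters TATAAA were in 21 (44.7%, against 12.4%), and the octamer ATTTGCAT, which POU factors such as the B cell factor Oct-2 read, in 10 (21.3%, against 1.60%). Hist1h2be alone had a further start listed, and counting any start the octamer was in 11. Some neighbouring histone genes share divergent promoters, so these members are not independent. The promoters of the gene with the largest difference between days and of the gene with the largest excess in cycling cells at both days with at least 50 UMIs are printed, with matches to the 3 motifs in capitals.

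Hist1h1c, chr13:23738557-23738806, plus strand: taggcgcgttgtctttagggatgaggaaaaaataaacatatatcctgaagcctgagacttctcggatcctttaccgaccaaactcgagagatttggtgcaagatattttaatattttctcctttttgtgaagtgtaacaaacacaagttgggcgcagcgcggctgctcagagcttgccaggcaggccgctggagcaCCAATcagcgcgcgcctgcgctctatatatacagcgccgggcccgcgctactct
Hist1h2ap, chr13:21833476-21833725, minus strand: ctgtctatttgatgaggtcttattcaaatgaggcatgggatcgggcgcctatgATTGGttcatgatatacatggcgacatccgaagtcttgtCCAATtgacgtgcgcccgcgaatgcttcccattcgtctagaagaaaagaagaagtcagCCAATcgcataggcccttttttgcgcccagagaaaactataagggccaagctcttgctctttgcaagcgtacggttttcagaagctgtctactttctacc

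Hist1h1c had 1 CCAAT match, 54 bases before its RefSeq start (position -54). Hist1h2ap had 3 matches. Neither window held TATAAA or ATTTGCAT.

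In cycling cells the members were higher than in non-cycling cells at both days. The summed level was 886.8 CPM at day 0 (258 UMIs) and 686.0 CPM at day 14 (284 UMIs), 1.60 times (1.41 to 1.81) and 1.90 times (1.68 to 2.14) that of non-cycling cells of the same library. Among members with at least 50 UMIs in both kinds of cell together, 7 of 15 at day 0 were at least 1.5-fold higher in cycling cells and 1 lower (Hist3h2ba), where all such genes gave 22.2% and 16.5%. At day 14, 6 of 13 were higher and 2 lower (Hist1h4n and Hist1h1c), where all genes gave 17.4% and 13.9%. Cycling cells were also the deeper set, at median UMIs of 2689.5 and 2629.5 against 2271 and 2231. Thinning to 1000 UMIs a cell gives each cell the same weight and leaves fewer UMIs to count. The summed ratios were then 1.17 (0.87 to 1.55) and 1.20 (0.88 to 1.60), within counting error. Whether depth, cell weight or the fewer UMIs made the change was not tested. With cycling set by at least 3 UMIs of lists of S and G2/M genes (610 and 782 cells), they were 0.876 and 0.971, so the direction depended on how cycling was defined.

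Among members with at least 15 UMIs in cycling cells over both days, a few genes had by far the largest ratios. Hist1h2an, with 15 such UMIs and 23 in non-cycling cells, was another beside those given next. Hist1h2ap, an H2A gene, had 34 UMIs in cycling cells at day 0 (116.9 CPM) and 50 at day 14 (120.8 CPM), 24.0 times (14.6 to 39.3) and 20.3 times (13.7 to 29.8) the non-cycling level. Hist1h1b had 19 UMIs at each day (65.3 and 45.9 CPM), 14.2 times (7.67 to 25.5) and 16.7 times (8.88 to 30.6). Hist1h2ae had 21 and 33 UMIs (72.2 and 79.7 CPM), 7.04 times (4.13 to 11.5) and 11.4 times (7.36 to 17.4). These genes carried much of their RNA in a small fraction of the cells: cycling cells held 45.2% of the Hist1h2ap and 36.9% of the Hist1h1b UMIs counted outside the plasma-like cluster.

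The 3 most abundant members did not follow them. Hist3h2a had 46 and 35 UMIs in cycling cells (158.1 and 84.5 CPM), 1.10 times (0.80 to 1.48) and 0.78 times (0.54 to 1.09) the non-cycling level. Hist1h1c had 38 and 15 UMIs (130.6 and 36.2 CPM), 0.84 times (0.59 to 1.16) and 0.56 times (0.31 to 0.93). Hist1h2bc was at 1.17 times (0.66 to 1.92) and 1.04 times (0.59 to 1.71). Hist1h1e lay between, at 1.97 times at both days (1.11 to 3.28 and 1.08 to 3.32), and H1f0 at 3.19 times (1.47 to 6.17) and 2.28 times (0.89 to 4.91), from 10 and 7 UMIs. Most cycling-cell UMIs of Hist3h2a and Hist1h1c came from cells with a single UMI of Mki67 or Top2a. In cells with at least 2 such UMIs, Hist3h2a was at 52.6 CPM (17.1 to 122.6) and 73.2 CPM (37.8 to 127.9). Its non-cycling level was 143.6 and 108.5 CPM. Hist1h1c was there at 84.1 CPM (36.3 to 165.7) and 30.5 CPM (9.91 to 71.2), against 155.7 and 64.9 CPM in non-cycling cells.

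**Figure D4:**
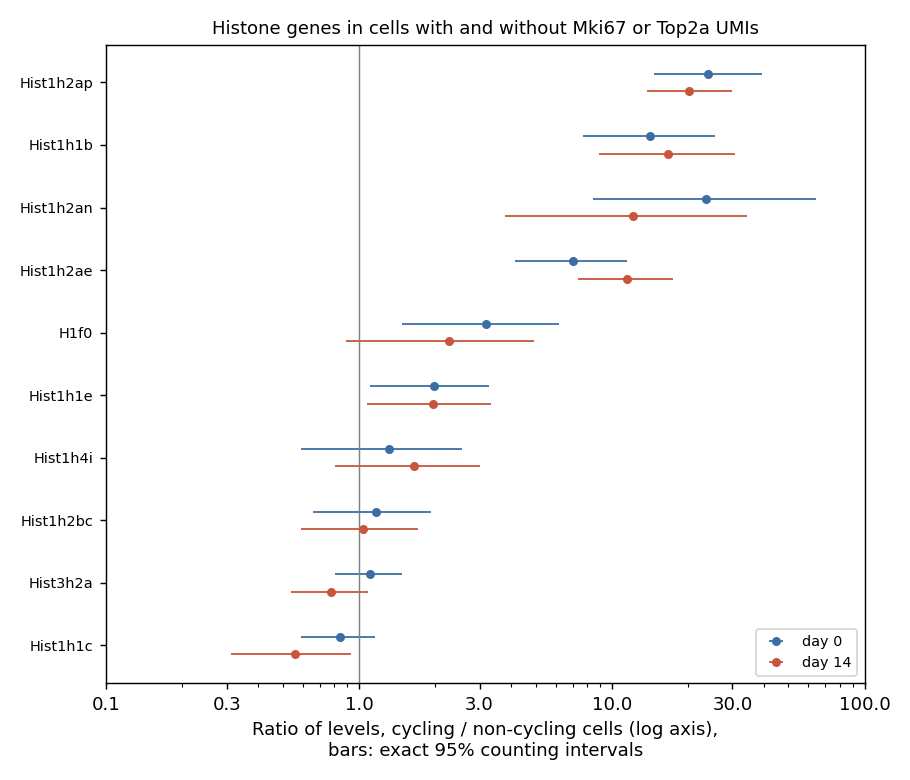
Ratio of the level in cycling cells to that in non-cycling cells of the same library, on a log axis, for the 10 members with at least 15 UMIs in cycling cells over both days, with exact 95% counting intervals. Hist1h2ap, Hist1h1b, Hist1h2an and Hist1h2ae lie well to the right of 1 at both days, and Hist3h2a, Hist1h2bc and Hist1h1c lie near or below it.

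Between the days, the cycling cells' summed members had a ratio of 0.774 (0.651 to 0.919). With plasma cells set by detected marker genes in place of the cluster, it was 1.19 (0.96 to 1.48), from 73 and 105 cycling cells. That setting takes out the 3 day 0 cells rich in histone UMIs described below, and none of the 4 such cells of day 14. Hist1h1c accounted for the clearest part, with 130.6 CPM at day 0 and 36.2 CPM at day 14, 3.60-fold lower (1.94 to 7.05). Hist3h2a was 1.87-fold lower (1.18 to 2.99). Hist1h2ap (ratio 1.03, 0.66 to 1.65) and Hist1h2ae (1.10, 0.62 to 2.01) had ratios near 1 with wide intervals. For Hist1h2ap the direction depended on the cells taken. In cycling cells of the cluster led by Pclaf it was at 253.7 CPM at day 0 and 457.7 CPM at day 14. There 34 of its 48 UMIs at day 14 lay in 1 cell, which counting intervals do not cover. In cells with at least 2 UMIs of Mki67 and Top2a it was at 346.8 and 292.9 CPM.

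UMIs of members with a large excess in cycling cells sat in few cells. Summed over Hist1h2ap, Hist1h2ae, Hist1h1b, Hist1h2an and Hist1h2ak, 5 members chosen after their values were seen, cycling cells held 85 UMIs at day 0 and 115 at day 14. Of these, 80 lay in 3 cells at day 0 and 102 in 4 cells at day 14. All 7 cells belonged to the cluster led by Pclaf and Rgs13, genes of dividing and germinal center B cells, which held 16 cycling cells at day 0 and 10 at day 14. They were large cells of 7335 to 20463 UMIs. The richest, at day 14, held 71 UMIs of the 5 genes, 34 of them Hist1h2ap, beside 157 UMIs of a list of S-phase genes and 1 UMI of Hist1h1c. The richest at day 0 held 36, beside 213 S-phase list UMIs and 2 of Hist1h1c. All 3 such cells of day 0 also had UMIs of at least 3 of 9 plasma cell genes, which none of the day 14 cells had.

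Many S-phase list UMIs did not always come with histone UMIs. At least 30 UMIs of the S-phase list were found in 15 cycling cells, 6 at day 0 and 9 at day 14. Of these, 6 held 10 or more UMIs of the 5 histone genes and 9 held 0 or 1. The list includes genes of the G1/S transition as well as of replication, and the order of the cells along the cycle was not measured.

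**Figure D5:**
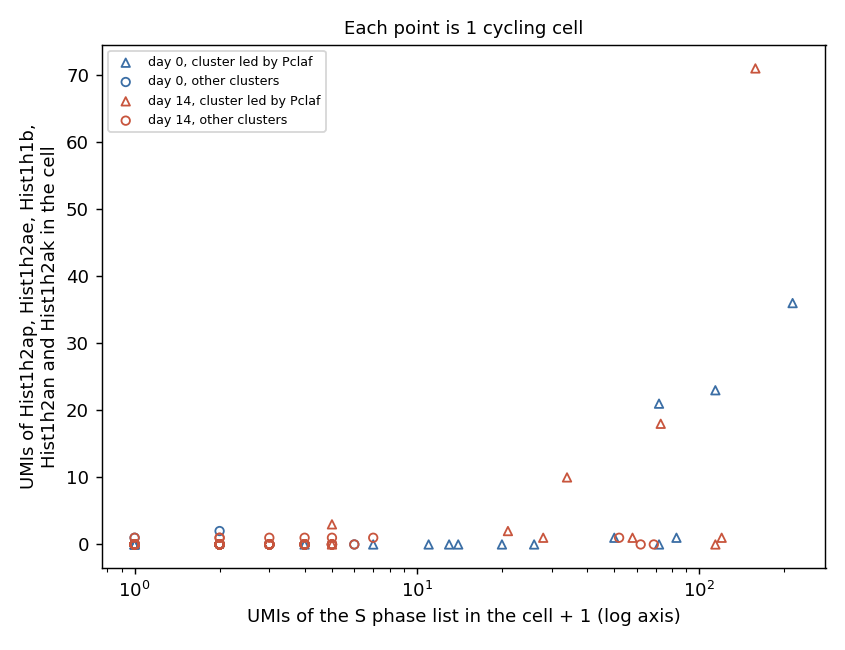
UMIs of Hist1h2ap, Hist1h2ae, Hist1h1b, Hist1h2an and Hist1h2ak in each cycling cell, against that cell's UMIs of the S-phase list plus 1 on a log axis, at day 0 (blue) and day 14 (red), with triangles for the cluster led by Pclaf. Most cells lie at 0 or 1, and 6 triangles stand at 10 to 71 UMIs.

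Inside that cluster, cycling cells held 630.3 CPM of the 5 genes at day 0 (82 UMIs, 16 cells) and 1020 CPM at day 14 (107 UMIs, 10 cells). Because the 5 genes were chosen after their values in these cells were seen, their excess here is not an independent result. In cycling cells of all other clusters the 5 genes were at 18.7 CPM (3 UMIs, 64 cells) and 25.9 CPM (8 UMIs, 98 cells), and in non-cycling cells at 23.3 and 18.2 CPM. Hist1h1c, not one of the 5, was at 53.8 CPM (7 UMIs) in cycling cells of the Pclaf cluster and 192.7 CPM (31 UMIs) in the other cycling cells at day 0. At day 14 these were 47.7 CPM (5 UMIs) and 32.3 CPM (10 UMIs), with intervals that overlapped. Without that cluster, the summed members of cycling cells were 1.26 times (1.04 to 1.52) the non-cycling level at day 0 and 0.922 times (0.751 to 1.12) at day 14.

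Plasma-like cells, the antibody-secreting stage of the B lineage, were compared with non-cycling cells, and the direction for the summed members depended on the denominator at day 0. Their summed members stood at 1070 CPM at day 0 (208 UMIs, 25 cells) and 816.4 CPM at day 14 (224 UMIs, 30 cells), 1.93 times (1.67 to 2.22) and 2.26 times (1.97 to 2.59) the non-cycling level. These cells are deep, at medians of 18958 and 15994.5 UMIs, and immunoglobulin genes made up 54.7% and 41.9% of their UMIs, which the denominator leaves out. With all UMIs as denominator, an alternative chosen after the data were seen, the summed members were at 0.886 times (0.767 to 1.02) the non-cycling level at day 0 and 1.34 times (1.17 to 1.53) at day 14. The ratio between days was 0.763 (0.629 to 0.926), and 0.985 (0.812 to 1.20) with all UMIs as denominator. Split by histone class in CPM, only H2B genes had an interval below 1, at 0.216 (0.132 to 0.342). Their UMIs fell from 82 to 25, and those of Hist1h2bc among them from 70 to 12. H1, H2A and H4 genes had ratios of 1.07 (0.792 to 1.46), 1.15 (0.734 to 1.81) and 0.826 (0.419 to 1.65). H3 genes rose from 0 to 11 UMIs. The lower sum was thus not shared by all classes.

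H1f0 was raised in plasma-like cells over non-cycling cells at both days, with 16 UMIs at day 0 (82.3 CPM) and 46 at day 14 (167.7 CPM), 7.64 times (4.17 to 13.2) and 22.6 times (15.4 to 32.8). With all UMIs as denominator these were 3.51 times (1.91 to 6.04) and 13.4 times (9.11 to 19.5). At day 0 the UMIs lay in 5 of 25 cells, 8 of them in 1 cell, and at day 14 in 18 of 30 cells. Without the 3 highest cells of each day, 3 of the 16 and 27 of the 46 UMIs of H1f0 were left. The day 0 excess thus rested on few cells. Hist1h1c, at 50 and 43 UMIs (257.3 and 156.7 CPM), was 1.65 times (1.22 to 2.19) and 2.42 times (1.73 to 3.29) the non-cycling level, but 0.759 times (0.56 to 1.01) and 1.43 times (1.03 to 1.95) with all UMIs as denominator. Hist3h2a was below it, at 11 and 8 UMIs (56.6 and 29.2 CPM), 0.394 times (0.196 to 0.708) and 0.269 times (0.116 to 0.531), and lower still with all UMIs as denominator, 0.181 and 0.159 times. Hist1h1c was thus above Hist3h2a at both days here.

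Hist1h2bc differed most between the plasma-like cells of the 2 days. It had 70 UMIs at day 0 (360.2 CPM, 280.8 to 455.1) and 12 at day 14 (43.7 CPM, 22.6 to 76.4), 8.24-fold lower (4.43 to 16.7). At day 0, 16 of 25 cells had a UMI, the highest 15, and the 3 highest held 38 of the 70. At day 14, 6 of 30 cells had a UMI, and the 3 highest held 9 of the 12. Without the 3 highest cells of each day 32 and 3 UMIs were left. Hist1h2ap and Hist1h1b went the other way: Hist1h2ap had 3 UMIs at day 0 and 23 at day 14, 12 of them in 1 cell, and Hist1h1b 0 and 13 UMIs, 10 of them in 1 cell. Hist1h2ae, also raised in cycling over non-cycling cells, had 15 UMIs (77.2 CPM) and 13 UMIs (47.4 CPM), a ratio of 0.614 (0.269 to 1.38). Cells with a UMI of Mki67 or Top2a made up 12% of plasma-like cells at day 0 and 33.3% at day 14, and their part in this difference was not tested. Plasma-like cells of each day came from 1 library and were few, so these values describe those cells.

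Other genes of histone supply were mostly within 1.5-fold between days in non-cycling cells, counting genes with at least 20 UMIs, where 7.15% of all genes were lower and 2.28% higher. Of 9 replacement histone genes, 1 was lower (H1fx, 17 and 11 UMIs) and none higher. H3f3b, the most abundant, was at 2832 CPM and 2287 CPM, a ratio of 0.807 (0.793 to 0.822), Cenpa, the centromeric H3, at 0.854 (0.789 to 0.923), and H2afx, which marks DNA breaks, at 0.877 (0.767 to 1.004). The median log2 ratio of that list was -0.11, where all genes with at least 20 UMIs had -0.09.

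None of 18 genes of stem-loop processing and histone mRNA decay passed 1.5-fold, at a median log2 ratio of 0.03. Snrpg, a ring protein of the small nuclear ribonucleoproteins, was at 923.8 and 921.8 CPM. Lsm10, of the U7 particle that guides stem-loop cleavage, had a ratio of 0.801 (0.642 to 1.001), and its partner Lsm11 1.17 (0.80 to 1.72). Upf1, which acts in decay, was at 0.823 (0.646 to 1.05), and the cleavage factor Cstf2 at 1.17 (0.92 to 1.48). None of 16 genes of the poly(A) machinery passed the limit either, with Pabpc1, the poly(A)-binding protein, at 657.3 and 656.8 CPM. In that list Cpsf1 had a ratio of 1.33 (0.91 to 1.96), Cpsf4 1.24 (0.95 to 1.64), Cstf1 0.809 (0.643 to 1.02) and the poly(A) polymerase Papolg 0.758 (0.628 to 0.916).

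None of 12 transcription regulators of histone genes passed 1.5-fold, at a median of -0.06. Pou2af1, the B cell coactivator of octamer promoters, was at 169.9 and 191.9 CPM, a ratio of 1.13 (1.05 to 1.21). Nfyb, a subunit of the factor that binds CCAAT, had a ratio of 0.764 (0.657 to 0.888), Hinfp, of H4 promoters, 0.794 (0.614 to 1.03), Cramp1l 0.833 (0.539 to 1.29) and Gon4l 1.22 (1.02 to 1.45). Of 24 chaperone genes 1 was lower, Hira, the chaperone of replacement H3, with 39 and 36 UMIs. Npm1 was the most abundant, at 927.4 and 1015 CPM. Chaf1b had a ratio of 0.697 (0.389 to 1.25), the importin Ipo9 0.731 (0.466 to 1.15) and Daxx 1.29 (1.01 to 1.64). The median of the chaperone list was -0.01.

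Cycle genes within non-cycling cells gave medians near those of all genes. Of 27 S-phase genes 1 was lower (Rrm2, 11 and 10 UMIs), at a median of -0.10, and Pcna, the replication clamp, was at 81.5 and 75.9 CPM. Mcm2 of the replicative helicase had a ratio of 0.794 (0.647 to 0.976), Tk1 0.719 (0.429 to 1.21) and Clspn 0.761 (0.307 to 1.90). Of 13 G2/M genes 2 were lower (Ckap2l, 30 and 27 UMIs, and Kif23, 38 and 36 UMIs), at a median of 0.01. In that list Smc4 was at 67.2 and 58.6 CPM, Cenpe had a ratio of 0.697 (0.384 to 1.27) and Cks1b 1.43 (0.99 to 2.07). S-phase list UMIs per non-cycling cell were 1.10 at day 0 and 1.02 at day 14.

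None of 12 genes tied to lymphocyte quiescence passed 1.5-fold, at a median of -0.12. Btg1, the most abundant, was at 2337 and 2249 CPM. Tsc22d3, a glucocorticoid-induced gene, was at 1312 and 931.9 CPM, a ratio of 0.710 (0.691 to 0.730), and Klf2, a regulator of resting lymphocytes, at 905.0 and 668.3 CPM, 0.738 (0.714 to 0.763). Rbl2 had a ratio of 0.685 (0.523 to 0.897) and Slfn2 1.25 (1.15 to 1.36).

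Markers of other cell types outside the plasma-like cluster were low next to those of B cells. T and NK cell markers summed to 7.60 and 4.15 CPM (9 of 10 detected, with Ncr1 at 0), myeloid markers to 179.6 and 205.7 CPM (10 of 10), epithelial markers to 10.3 and 10.6 CPM (6 of 8, with Krt20 and Vil1 at 0), stromal markers to 60.8 and 51.0 CPM (6 of 7, with Vwf at 0), and erythroid markers to 10.3 and 4.24 CPM (2 of 6, with Hba-a1 and Hba-a2 at 0). Plasma cell markers, including RNA that can leave other cells, summed to 859.6 and 701.4 CPM. Their part in the histone ratios was not tested. Barcodes that the deposited log-normalized tables leave out, 86 at day 0 and 88 at day 14, held 77 and 93 UMIs of Hist1h2bc and 49 and 34 of H1f0, and the members' summed non-cycling ratio with them is given among the alternatives.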

How the data were processed

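Single-cell 3′ RNA libraries (10x Genomics Chromium, version 2 kit, per the labels' protocols) were deposited by the authors as UMI count matrices (Cell Ranger 3.0.1, per the file headers) and as log-normalized tables. mm10 and Seurat 3.0 are named in the submitters' processing notes. The deposited log tables hold the natural log of 1 plus UMIs scaled to 10000 per cell: all values compared matched the counts within a relative 0.001. They served to choose the barcodes, and all levels came from the counts. Members and gene lists were chosen with earlier results of these data known.

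Counts were summed per library and cell set and divided by all UMIs except immunoglobulin and mitochondrially encoded genes. Cells were clustered in Scanpy 1.11.5 (2000 variable genes without histone genes, 20 principal components, 20 neighbours, Leiden resolution 0.8). Doublets were not called; an alternative left out cells above 2 times their cluster's median UMIs. With 1 library per day there is no test: Poisson, conditional binomial and Clopper-Pearson 95% intervals cover counting error only. A gene counted as different past 1.5-fold with at least 50 UMIs (20 for the fixed lists), with 3 counts as the floor for a count of 0. Printed genes were all members with at least 50 UMIs in non-cycling cells, H1f0, and per list the most abundant gene and up to 4 with the largest ratios. Tested on simulated data of this comparison over 8774 genes, the count recovered 47 of 50 genes made 2-fold higher, 48 of 50 made 2-fold lower, and called 267 of 8574 unchanged ones. Alternatives covered the denominator, scaling (TMM of edgeR 4.0.16, median-of-ratios), thinning, limits and cell definitions.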

Additional observations from a re-analysis of the deposited data

How the results depend on the processing

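No paired analysis was possible because each day had 1 library. Every value rests on counting error alone, and depth limits members with under 50 UMIs. Of 286 values of single members under alternatives, 284 kept their side of 1 and stayed within their intervals. The other two were Hist1h1c with cluster shares made equal (0.461) and Hist1h2bc without the heat shock cluster (0.667). The Hist1h1c ratio ranged from 0.394 to 0.461 over 13 alternatives. Of 131 summary values, 88 did so too, and the 43 below did not. Alternatives added after seeing the data left out the clusters led by Tgtp2, by Hspa1a or (for cycling cells) by Pclaf, left out the richest cell, or added the barcodes that the log tables lack, which gave a non-cycling summed ratio of 0.659. The cause was not tested for values below, apart from limits that change which genes or cells are counted.

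The 8 members lower in non-cycling cells became 5 with median-of-ratios factors, where 2.61% of all genes were lower. They became 21 (and 2 higher) with a minimum of 5 UMIs, where 11.3% of all genes were lower and 4.83% higher. With a minimum of 200 UMIs they became 3, where 1.81% of all genes were lower. They were 3 with cells thinned to 1000 UMIs, which also leaves fewer members to count, and 2 at 2-fold. Shares of all genes are not given for these last settings, so their counts cannot be set against the 8. The summed ratio of 0.652 was 0.689 thinned, 0.70 with TMM, 0.703 with median-of-ratios and 0.705 with equal cluster shares. Without Hist1h1c these were 0.791, 0.799, 0.802 and 0.801. Thinned to 1500 UMIs, 16.5% of cells at day 0 and 7.70% at day 14 held Hist1h1c.

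The plasma-like ratio of 0.763 was 0.985 with all UMIs as denominator and 1.12 thinned. The cycling ratio of 0.774 between days was 1.19 with plasma cells set by detected markers, 0.636 without the richest cell and 0.474 without the Pclaf cluster. Cycling over non-cycling cells, 1.60 at day 0 and 1.90 at day 14, was 1.17 and 1.20 thinned, 1.18 and 1.53 without cells above 2 times their cluster's median UMIs, 2.58 and 3.34 with at least 2 UMIs of Mki67 and Top2a, and 1.38 and 1.35 without the richest cell. It turned to 0.876 and 0.971 with cycling set by at least 3 UMIs of the S and G2/M lists, and was 1.26 and 0.922 without the Pclaf cluster. With plasma cells set by markers it was 1.08 at day 0.

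The fixed lists' 5 genes lower and 0 higher became 1 lower and 1 higher with TMM and also with median-of-ratios, and 3 and 3 with cycling set by the lists. Higher genes were 1 thinned, 1 without cells above 2 times the median and 2 with plasma cells set by markers.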
